A study of Mus musculus with 6 samples.

Results

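The genes described here encode the invariant chains of the T-cell receptor complex, Cd3d, Cd3e, Cd3g and Cd247, and the proteins that carry its first signals, the kinases Lck and Zap70 and the adaptors Lat, Fyb and Lcp2. They were read by every probe set that the array annotation assigned to only 1 of these 9 genes, which gave 15 of the 45037 probe sets tested and covered 8 of the 9 genes. No probe set was assigned to Lck, and Lck is not analysed here. The CD3 chains had 7 probe sets from 4 genes, and the kinases and adaptors had 8 probe sets from 4 genes.

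The samples were DN2 cells sorted from mouse fetal thymus, early thymocytes without CD4 or CD8 that are about to commit to the T-cell lineage. There were 3 arrays of E2A-deficient cells and 3 arrays of wild-type cells, all on the FVB background and all hybridised with biotin-labelled RNA that had been amplified repeatedly from small samples. E2A denotes the E protein transcription factors made from Tcf3, and the labels state neither which allele was used nor whether animals were pooled. The question was which genes depend on E2A in developing T cells.

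The T-cell receptor itself has no signalling tail. The CD3 gamma, delta and epsilon chains and the zeta chain encoded by Cd247 supply tyrosine motifs that Lck phosphorylates, Zap70 docks on these motifs, and Zap70 then phosphorylates Lat and Lcp2, on which further adaptors such as Fyb assemble. In the thymus the CD3 chains are made before any complete receptor is available, and the same complex first signals with the pre-TCR, the receptor that tests a rearranged beta chain. E proteins bind DNA at the E-box, CANNTG.

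The promoter windows of the 3 adjacent CD3 genes and of Lat and Fyb are shown because these are the genes on which the results turn, and because E-boxes are the sites that the missing factor is known to bind. The sequences are RefSeq windows of assembly GRCm38.p6, from 250 bases before to 50 bases after the annotated start, read 5′ to 3′ on the strand of the gene. Capitals mark every CANNTG match, a pattern that reads the same on both strands. Cd3g lies at chr9:44980382-44980681 on the minus strand, Cd3d at chr9:44981536-44981835 on the plus strand, Cd3e at chr9:45009562-45009861 on the minus strand, Lat at chr7:126369519-126369818 on the minus strand and Fyb at chr15:6579597-6579896 on the plus strand.
Cd3g promoter: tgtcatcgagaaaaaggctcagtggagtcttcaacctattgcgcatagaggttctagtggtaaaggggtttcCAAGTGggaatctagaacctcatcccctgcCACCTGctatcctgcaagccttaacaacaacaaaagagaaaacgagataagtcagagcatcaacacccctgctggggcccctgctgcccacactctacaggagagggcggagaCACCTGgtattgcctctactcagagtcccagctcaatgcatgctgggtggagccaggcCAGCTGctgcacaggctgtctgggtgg
Cd3d promoter: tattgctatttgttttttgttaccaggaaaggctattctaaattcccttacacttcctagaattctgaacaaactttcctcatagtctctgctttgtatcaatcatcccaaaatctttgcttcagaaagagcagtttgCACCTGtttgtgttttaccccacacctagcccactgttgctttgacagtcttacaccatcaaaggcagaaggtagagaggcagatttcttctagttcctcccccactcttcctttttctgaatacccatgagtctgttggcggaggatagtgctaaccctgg
Cd3e promoter: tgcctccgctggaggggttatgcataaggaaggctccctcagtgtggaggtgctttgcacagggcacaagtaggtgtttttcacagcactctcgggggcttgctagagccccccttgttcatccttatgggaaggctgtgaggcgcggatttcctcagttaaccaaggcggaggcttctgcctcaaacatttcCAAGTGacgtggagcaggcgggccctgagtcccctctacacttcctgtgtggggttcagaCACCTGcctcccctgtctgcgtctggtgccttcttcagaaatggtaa
Lat promoter: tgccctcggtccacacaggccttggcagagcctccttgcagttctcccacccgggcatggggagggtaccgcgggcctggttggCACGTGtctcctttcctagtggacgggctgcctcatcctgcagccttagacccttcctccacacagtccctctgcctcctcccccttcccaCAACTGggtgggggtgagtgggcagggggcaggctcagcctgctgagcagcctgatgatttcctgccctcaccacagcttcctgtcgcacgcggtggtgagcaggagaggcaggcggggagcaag
Fyb promoter: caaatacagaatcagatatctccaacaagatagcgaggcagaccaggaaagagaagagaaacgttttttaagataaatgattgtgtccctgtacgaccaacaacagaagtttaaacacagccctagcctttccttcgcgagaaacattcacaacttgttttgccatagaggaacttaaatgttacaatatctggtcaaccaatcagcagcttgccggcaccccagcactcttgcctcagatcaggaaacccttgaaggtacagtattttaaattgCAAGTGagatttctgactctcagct

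All 9 genes had a window in the table, 12 windows in all, since Lck and Zap70 had several starts. Each of the 12 windows held at least 1 CANNTG, as did 72.3% of all 32851 promoter windows of this length. The form CACCTG, which on the other strand reads CAGGTG, was found in 8 of the 12 windows and in 20.2% of all windows, and CAGCTG in 2 of the 12 and in 16.3% of all windows. Windows with CACCTG or CAGGTG belonged to Cd3g, Cd3e, Cd3d, Cd247, Lck and Zap70, and those of Lat, Fyb and Lcp2 held neither. Lck and Zap70 count more than once through their several starts. Among the genes measured below, the form thus occurred in some that fell and in some that did not pass, and was absent from others that fell. Its part in the falls was not tested. The Cd3g window held 4 E-boxes. The 2 that read CACCTG begin 148 and 35 bases before the start, and CAGCTG begins at base 24 after it. Cd3d and Cd3e each held 1 CACCTG, beginning 112 bases before the start in Cd3d and at base 4 after it in Cd3e. In the Lat window CACGTG begins 166 bases before the start, and another match that reads CAACTG begins 75 bases before it. The Fyb window held only CAAGTG, at base 26 after the start. These matches describe the letters of the windows and are not binding sites measured in these cells.

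On the arrays, Cd3g, Cd3e, Lat and Fyb fell in E2A-deficient cells, while the probe sets of Cd3d, Cd247, Zap70 and Lcp2 did not pass the test. Of the 15 probe sets 5 fell and 0 rose (limma, Benjamini-Hochberg adjusted p under 0.05 over all 45037 probe sets). Over the whole array 0.58% of probe sets fell and 1.21% rose, so 1.79% were called in either direction. At an unadjusted p under 0.05, 6 of the 15 would count as lower and 2, both of Zap70, as higher. By limma p, Cd3d ranked 2136 and these 2 of Zap70 ranked 3117 and 3643 among the 45037, so many probe sets pass unadjusted. The share of all probe sets that do so is not given here. The 15 had a median log2 change, E2A deficient minus wild type, of -0.15, against 0.0039 for all probe sets. Of the 15, 12 were brighter than the median probe set, and all 5 that fell were among them; of all probe sets that bright 1.12% fell. In bulk samples such as these, fewer cells that express a gene and less of its RNA per cell cannot be told apart.

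**Figure D1:**
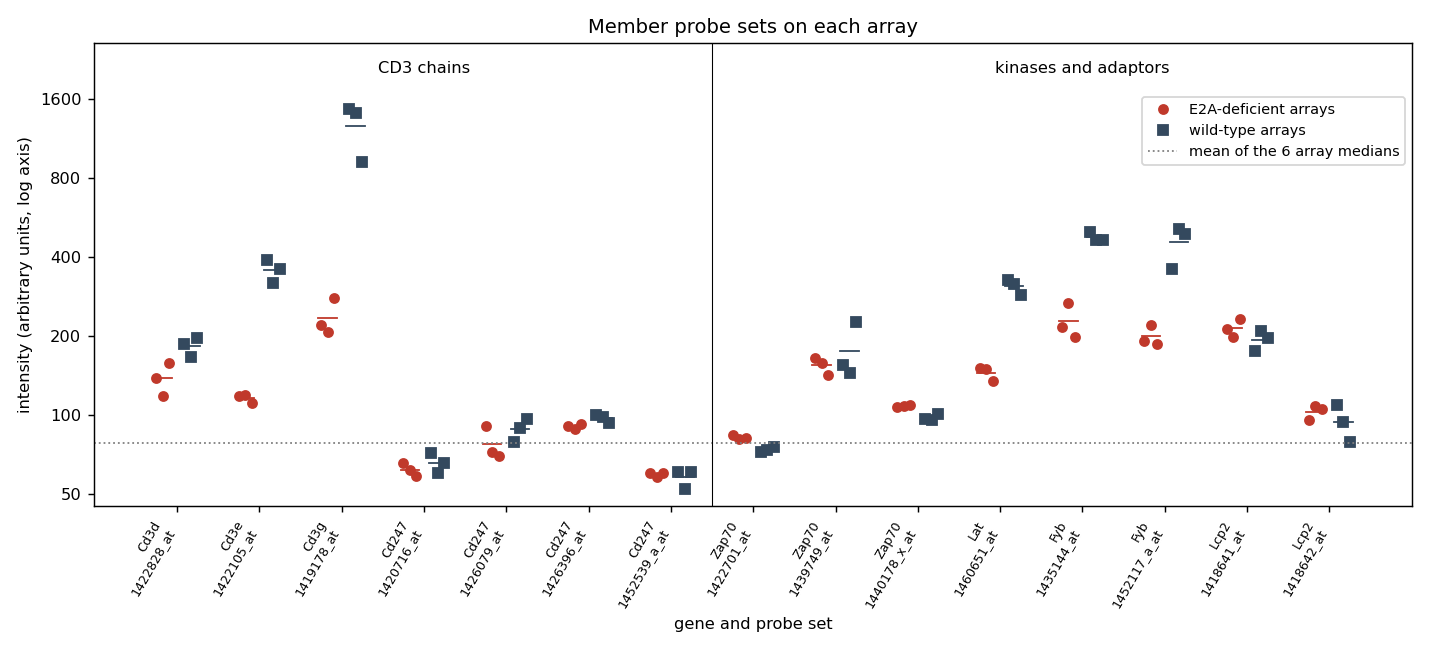
Intensity (vertical, log axis, arbitrary units) of the 15 member probe sets on each E2A-deficient array (circles, left of each pair) and each wild-type array (squares), with horizontal bars at the group means. Cd3e, Cd3g, Lat and both Fyb probe sets lie lower on all 3 E2A-deficient arrays by a wide gap, and the probe sets of Cd247 lie near the array medians (dotted line) or below them in both groups.

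Cd3g encodes the gamma chain, which pairs with the epsilon chain. Its only probe set had intensities of 219, 207 and 278 on the E2A-deficient arrays and 1465, 1413 and 918 on the wild-type arrays. The lowest wild-type array, replicate 3, was still far above the highest E2A-deficient array. Means were 235 ± 38.2 in E2A-deficient cells and 1265 ± 302 in wild-type cells (SD, n = 3 each). The log2 change was -2.41 (SE 0.193, 95% interval -2.86 to -1.95, limma adjusted p = 0.00185), or 18.9% of the wild-type intensity. Such percentages are ratios of array intensity and not amounts of RNA. By size of fall Cd3g ranked 3 among the 45037 probe sets.

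Cd3e encodes the epsilon chain, a partner of both the gamma and the delta chain. Its only probe set read 119, 119 and 112 in E2A-deficient cells and 389, 319 and 360 in wild-type cells. The 3 E2A-deficient values lay close together and none approached the wild-type range. The change was -1.60 on the log2 scale (SE 0.0817, 95% interval -1.79 to -1.41, limma adjusted p = 2.84e-04), or 33.0% of the wild-type intensity.

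Cd3d, which encodes the delta chain, read 139, 118 and 158 in E2A-deficient cells and 186, 167 and 196 in wild-type cells. The groups did not overlap, which was also true of 16.9% of all probe sets, but the spread within each was wide against the gap between them. The log2 change was -0.41 (SE 0.112, 95% interval -0.67 to -0.15), and it did not pass over the whole array (limma adjusted p = 0.162).

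The 3 genes lie side by side on chromosome 9, so their unequal changes were compared within arrays. The log2 change of Cd3g minus that of Cd3d was -1.998, with E2A-deficient arrays at -2.10, -1.96 and -1.94 and wild-type arrays at 0.21, 0.32 and -0.53 relative to the wild-type mean of this log ratio. Cd3e minus Cd3d gave -1.19, and Cd3g minus Cd3e gave -0.81. In each of these 3 pairs the groups did not overlap. For Cd3g minus Cd3e they nearly touched, with replicate 3 at -0.49 in E2A-deficient cells and at -0.45 in wild-type cells. Cd3g, Cd3e and Cd3d also differed in brightness, with means of 1265, 356 and 183 in wild-type cells. In E2A-deficient cells the means were 235, 116 and 138, against array medians of 77.4 to 79.0. Dim values leave less room for a log2 fall, and the part of brightness in the unequal changes was not tested. An exact two-sided permutation test gave p = 0.10 for each pair (n = 3 per group; adjusted over the 3 pairs 0.10), which is the smallest value that 3 arrays against 3 can give, so this design could not pass 0.05.

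Cd247 encodes the zeta chain, the longest signalling tail of the complex. Its brightest probe set, 1426396_at, read 91.0, 88.3 and 92.7 in E2A-deficient cells and 100.4, 98.3 and 93.8 in wild-type cells, a log2 change of -0.10 (95% interval -0.23 to 0.02). Its other 3 probe sets gave -0.19, -0.09 and 0.04, with groups that overlapped, and none of the 4 passed (limma adjusted p from 0.538 to 0.914). The 4 lay near the array medians of 77.4 to 79.0 or below them. The lowest end of their 95% intervals was -0.47, in the probe set 1426079_at.

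Among the adaptors, Lat, the membrane scaffold that Zap70 phosphorylates, fell. Its only probe set read 151, 149 and 135 in E2A-deficient cells and 326, 317 and 287 in wild-type cells. The spread within each group was small against the gap between them. The log2 change was -1.09 (SE 0.0729, 95% interval -1.26 to -0.92, limma adjusted p = 0.0010), or 47.0% of the wild-type intensity.

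Fyb encodes ADAP, an adaptor that binds Lcp2 and links the receptor to integrins, and 2 probe sets read it. The probe set 1435144_at had intensities of 217, 268 and 199 in E2A-deficient cells and 498, 463 and 465 in wild-type cells (log2 change -1.07, SE 0.109, 95% interval -1.32 to -0.81, limma adjusted p = 0.0049). The probe set 1452117_a_at, which can hybridise to several transcripts of a gene, had 192, 221 and 186 in E2A-deficient cells and 361, 512 and 491 in wild-type cells (-1.17, SE 0.138, 95% interval -1.49 to -0.85, limma adjusted p = 0.00897). Both probe sets separated the groups and gave falls of like size.

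Lcp2, the cytosolic scaffold that joins Lat to its effectors, read 213, 199 and 232 in E2A-deficient cells and 176, 209 and 196 in wild-type cells with its brighter probe set, 1418641_at. The groups overlapped, and the log2 change of 0.15 did not pass (95% interval -0.05 to 0.35, limma adjusted p = 0.595). Its other probe set gave 0.14 (95% interval -0.13 to 0.42, limma adjusted p = 0.759). With single arrays left out, the changes were 0.080 to 0.20 for 1418641_at and 0.021 (without wild-type replicate 3) to 0.26 (without wild-type replicate 1) for the other, and neither passed. For 1418641_at, a fall of the size seen in Lat lies outside the interval. The other probe set had a wild-type mean of 94.2, near the array medians of 77.4 to 79.0. It had little room to show such a fall, so its interval does not bear on one.

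The kinase gene Zap70 was read by 3 probe sets that did not point the same way. The probe set 1422701_at had intensities of 84.2, 81.1 and 82.1 in E2A-deficient cells and 72.3, 73.4 and 75.4 in wild-type cells. The probe set 1440178_x_at had 107, 109 and 110 in E2A-deficient cells and 96.9, 95.4 and 100.7 in wild-type cells. In both the groups did not overlap, with log2 changes of 0.16 and 0.15 that did not pass (limma adjusted p = 0.233 and 0.267). The values of 1422701_at lay near the array medians of 77.4 to 79.0 in both groups. The brightest probe set, 1439749_at, had 165, 158 and 142 in E2A-deficient cells and 156, 145 and 226 in wild-type cells, so that its log2 change of -0.15 (limma adjusted p = 0.831) rested on wild-type replicate 3. Without that array the change was 0.04.

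**Figure D2:**
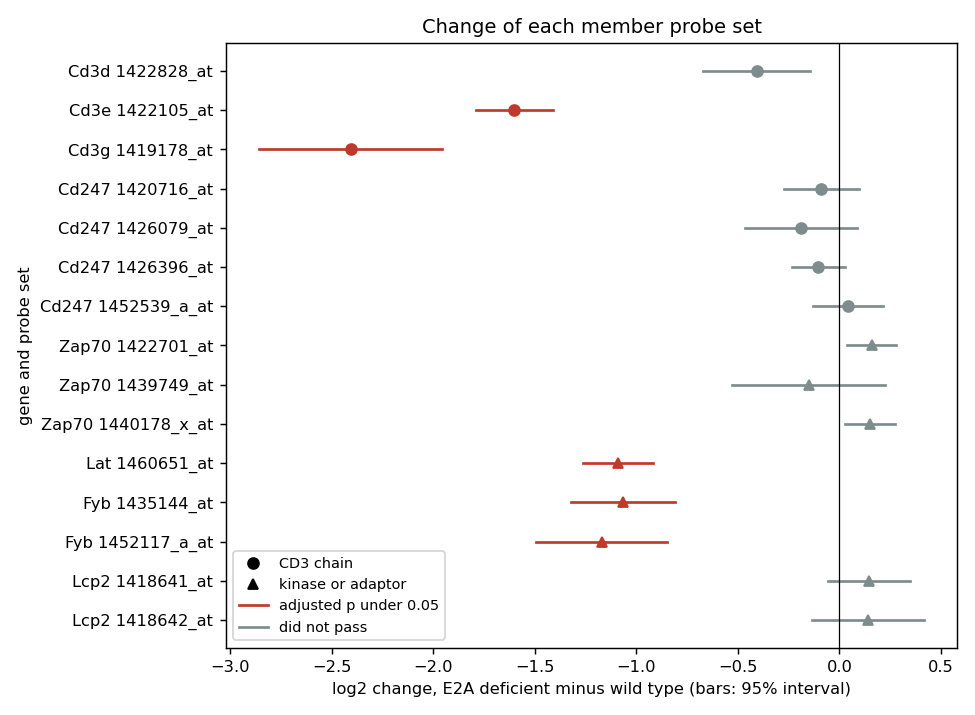
Log2 change (horizontal, E2A deficient minus wild type) of each member probe set with its 95% interval from limma, CD3 chains as circles and kinases and adaptors as triangles, red where the adjusted p was under 0.05. Cd3g at -2.41, Cd3e at -1.60, Lat at -1.09 and Fyb at -1.07 and -1.17 stand apart from the other 10 probe sets, which lie between -0.41 and 0.16.

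Set side by side, the CD3 chains and the kinases and adaptors each split into genes that fell and genes that did not pass. Of the 7 CD3 probe sets 2 fell, and of the 8 kinase and adaptor probe sets 3 fell, which in each class came to 2 of the 4 genes. The median log2 change was -0.19 over the CD3 probe sets and -0.0052 over those of kinases and adaptors, a difference of -0.18, with 4 of the 7 CD3 probe sets reading Cd247. With only the brightest probe set of each gene, the medians were -1.004 for the CD3 chains and -0.61 for the kinases and adaptors, a difference of -0.39. Relative to the wild-type mean, the CD3 median was -0.098, -0.28 and -0.21 on the E2A-deficient arrays and 0.070, -0.12 and 0.022 on the wild-type arrays. The kinase and adaptor median was -0.0090, -0.040 and -0.061 on the E2A-deficient arrays and -0.020, 0.0038 and 0.028 on the wild-type arrays. On the E2A-deficient arrays the CD3 median was the lower of the pair each time, but wild-type replicate 2 lay within their range. No test was made of the classes, whose members were chosen with earlier results known.

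The genes around the CD3 cluster were read with the brightest probe set of each gene, since Cd3g and Cd3e are neighbours with only Cd3d between them. Of the 6 measured genes on each side, 12 in all, 2 fell and 10 did not pass, against 1.06% of 18193 genes that fell over the array, and their median log2 change was -0.068. Mpzl2, an adhesion protein gene next to Cd3e, had 87.4, 81.3 and 75.7 in E2A-deficient cells and 729, 615 and 386 in wild-type cells (log2 change -2.76, SE 0.212, limma adjusted p = 0.00101). That probe set can hybridise to several transcripts. In the fit per probe set, Mpzl2 gave -1.63 with 1448265_x_at (limma adjusted p = 0.00114) and -0.35 with the dim 1416237_at (limma adjusted p = 0.206). Probe sets with _a, _s or _x in their names were treated together as shared, and of Mpzl2 only 1416237_at has none of these. Kmt2a, a histone methyltransferase gene 3 measured genes away from Cd3g, changed by -0.36 (SE 0.0562, limma adjusted p = 0.0177) and lost its call under 9 of 19 alternatives, over which its change stayed between -0.41 and -0.31. The dimmer Kmt2a probe set, 1452377_at, gave -0.26 in the fit per probe set and did not pass (limma adjusted p = 0.665), with groups that overlapped. The nearest measured gene beyond Cd3g, Ube4a, gave -0.12 (limma adjusted p = 0.660), and Mpzl3, beyond Mpzl2, gave -0.02.

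**Figure D3:**
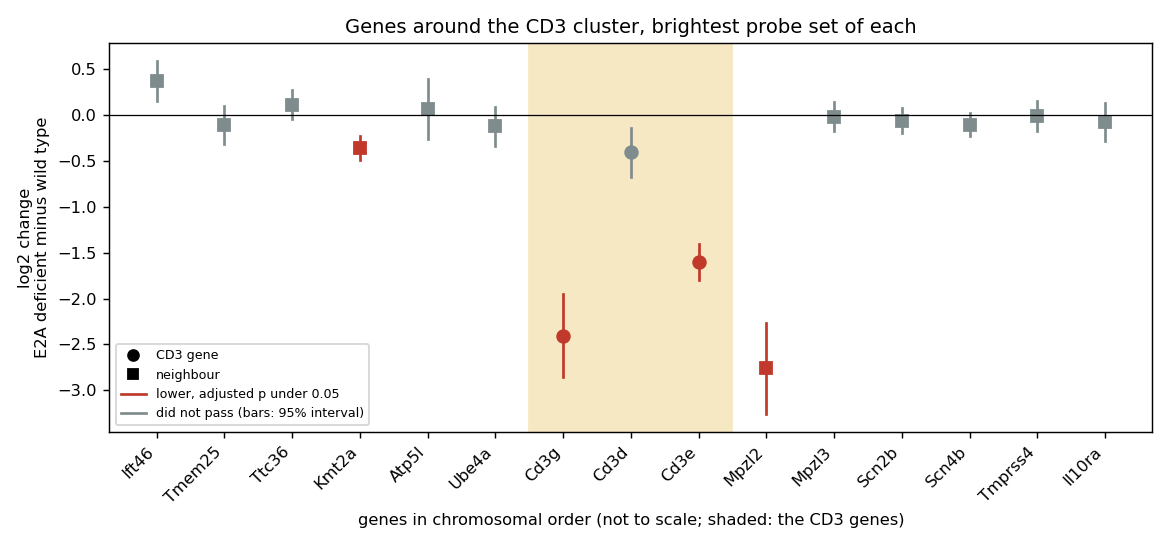
Log2 change (vertical, E2A deficient minus wild type, with 95% intervals) of the CD3 genes (circles, shaded) and of the 6 measured genes on each side in chromosomal order (squares, not to scale), red where the adjusted p was under 0.05. The large falls are those of Cd3g, Cd3e and Mpzl2, with Cd3d between Cd3g and Cd3e at -0.41.

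Other genes of T-cell receptor signalling were taken from a list of 46 genes, of which 44 were measured, with the brightest probe set of each. Of the 44, 5 fell and 2 rose, against 1.06% of all 18193 genes that fell and 2.40% that rose, and their median log2 change was 0.016, against 0.015 for all genes. At an unadjusted p under 0.05 by limma, 7 would count as lower and 9 as higher. The share of all genes that pass unadjusted is not given here, so these counts are not read as a result about the list. Calls in the list were smaller than those of Cd3g, Cd3e, Lat and Fyb, with log2 changes from -0.77 to 0.39.

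In the group of the pre-TCR, co-receptors and surface regulators 10 genes were measured, of which 2 fell. Cd5, an inhibitory receptor whose level follows receptor signal strength, had 75.4, 71.2 and 69.8 in E2A-deficient cells and 127, 98.7 and 131 in wild-type cells (log2 change -0.70, SE 0.110, limma adjusted p = 0.0171). Trat1, a transmembrane adaptor that associates with the receptor, changed by -0.48 (SE 0.0974, limma adjusted p = 0.0468). In E2A-deficient cells both had mean intensities below the array medians.

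None of the 6 measured kinases of the list passed. The smallest p-values belonged to Txk, a Tec family kinase, at 0.40 (limma adjusted p = 0.0582), and the protein kinase C gene Prkcq, at 0.27 (limma adjusted p = 0.439). At an unadjusted p under 0.05 Txk would be the only kinase counted. It had 103, 103 and 105 in E2A-deficient cells and 80.2, 69.5 and 87.2 in wild-type cells, and it passed under 8 of 18 alternatives.

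Of the 15 negative regulators 2 fell. Pag1, the membrane adaptor that recruits the inhibitory kinase Csk, had 260, 299 and 325 in E2A-deficient cells and 579, 476 and 456 in wild-type cells (log2 change -0.77, SE 0.116, limma adjusted p = 0.0153). The other 3 probe sets of Pag1, all of them dimmer, gave values from -0.045 to 0.084 and did not pass. Ubash3a, a suppressor of T-cell receptor signalling, changed by -0.45 (SE 0.0809, limma adjusted p = 0.0295).

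Of the 13 measured adaptors and effectors 1 fell and 2 rose. Plcg1, the phospholipase recruited by Lat, changed by -0.61 (SE 0.119, limma adjusted p = 0.0392), with 248, 281 and 288 in E2A-deficient cells and 446, 347 and 461 in wild-type cells. Skap1, the partner that binds Fyb, rose by 0.36 (SE 0.0685, limma adjusted p = 0.0349), with 167, 153 and 155 in E2A-deficient cells and 116, 123 and 130 in wild-type cells. Rhoh, a small GTPase that helps Zap70 reach the receptor, rose by 0.39 (SE 0.0789, limma adjusted p = 0.0455). In the fit per probe set, with more tests, Trat1, Plcg1 and Rhoh did not pass (limma adjusted p = 0.0669, 0.0575 and 0.0647). The other 2 probe sets of Skap1, both dimmer, gave -0.15 and 0.098, and those of Rhoh gave 0.012 and -0.096, none of which passed. With the mean of the probe sets of a gene both changes were 0.10 and did not pass (limma adjusted p = 0.540 for Skap1 and 0.329 for Rhoh). Nor did they pass after quantile normalization between arrays, with changes of 0.34 each (limma adjusted p = 0.0514 for Skap1 and 0.0594 for Rhoh). The dimmer probe sets of Plcg1 (-0.12 and -0.076) and of Trat1 (0.015) did not pass, nor did that of Ubash3a (-0.40, limma adjusted p = 0.101). The calls of the whole list were sensitive to the arrays used. Of its 44 genes 1 fell without E2A-deficient replicate 1 or 3 or wild-type replicate 3, and 0 fell without E2A-deficient replicate 2, where 5 were lower and 10 higher at an unadjusted p under 0.05 by limma. Skap1 and Rhoh passed in none of the 6 fits that left out 1 array, with log2 changes of 0.32 to 0.40 for Skap1 and 0.34 to 0.45 for Rhoh. The 1 gene that rose was Rasgrp1 without wild-type replicate 1 and Txk without wild-type replicate 3, and 0 rose in the other 4 fits.

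**Figure D4:**
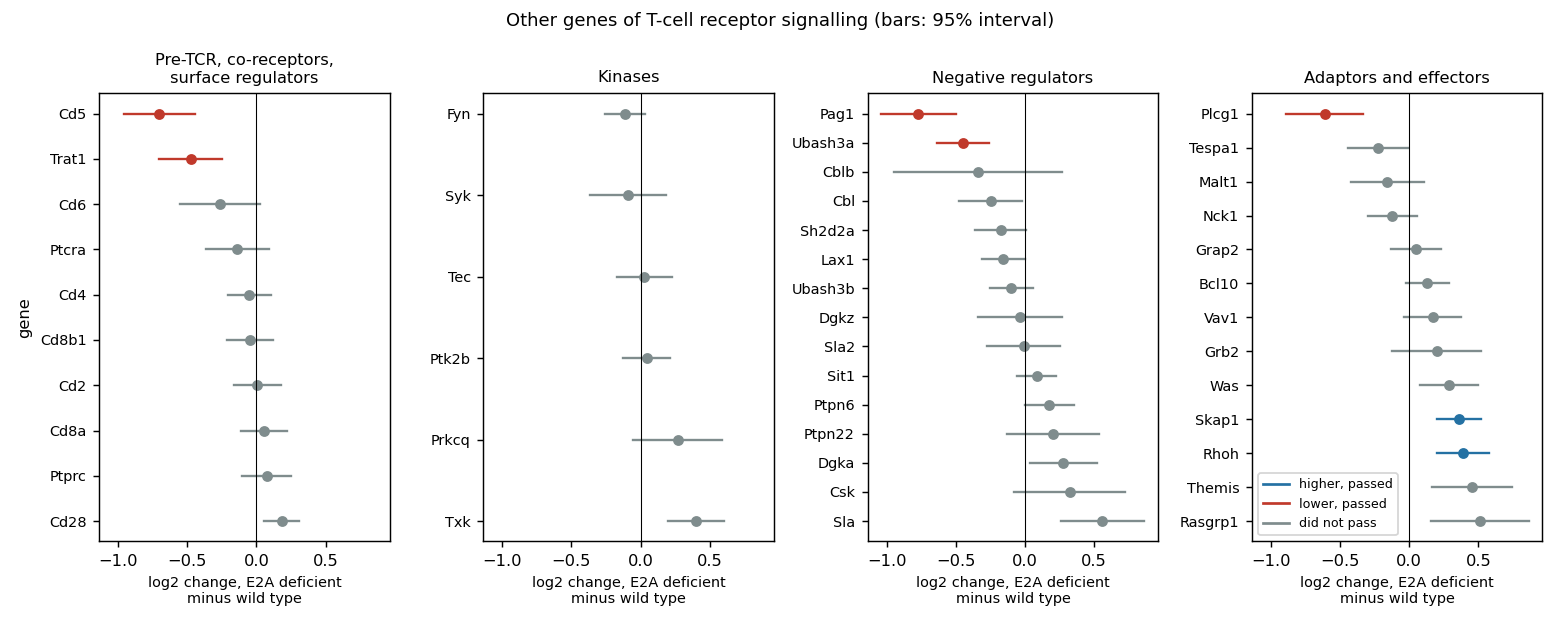
Log2 change (horizontal, E2A deficient minus wild type, with 95% intervals) of the 44 other measured genes of T-cell receptor signalling in 4 role groups, red where lower and blue where higher at an adjusted p under 0.05. The 5 that fell and the 2 that rose lie between -0.77 and 0.39, and all 6 kinases are grey.

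The genes whose profiles over the 6 arrays were nearest to that of Cd3g, by root mean square difference of centred log2 values, were Mzb1 (0.174), Aldh1b1 (0.184) and Gm19696 (0.185). Mzb1, for example, had 113, 103 and 105 in E2A-deficient cells and 823, 701 and 450 in wild-type cells, with wild-type replicate 3 lowest as in Cd3g. Nearest to Cd3e were Uaca (0.122), Sh2d5 (0.139) and Rab38 (0.145). These distances are a description of 18193 genes over 6 arrays, and the gap between the groups makes up most of each profile.

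Facts of the samples bear on these values. Tcf3, the targeted gene, was lower with all 3 of its probe sets (log2 changes -0.81, -0.49 and -0.24, the first 2 past the threshold). The DN2 genes Il2ra, Kit and Cd44 were bright in both groups and none of the 3 passed (1 of them, Kit, at an unadjusted p under 0.05), whereas Cd4 and Cd8a lay near the array medians. For markers of DN3 (the stage after DN2) and later alpha-beta thymocytes (Ptcra, Rag1, Rag2, Cd8a and Cd4) the summed intensity was 401 to 444 in E2A-deficient cells and 468 to 552 in wild-type cells, and 0 of 5 passed (1 of them, Rag1, at an unadjusted p under 0.05). Rag1 changed most, by -0.66 (limma adjusted p = 0.148), with groups that did not overlap. For the innate lymphoid markers Rora, Zbtb16, Il7r, Icos and Gata3 the sum was 2799 to 3248 in E2A-deficient cells and 1099 to 1381 in wild-type cells, and 4 of 5 rose. Of the B-cell markers 4 were measured and of the NK-cell markers 3, and 0 of either passed by limma, also at an unadjusted p under 0.05. Of the gamma-delta markers only Sox13 (-0.41) and Cd163l1 (2.01) were measured, and they moved in opposite directions. Mpo was the only bright myeloid marker of 5, while Lyz2 fell by 0.50 on the log2 scale. Of 4 mesenchymal and endothelial markers all lay below the array medians on every array. The part of these cell types in the falls of Cd3g, Cd3e, Lat and Fyb was not tested.

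The 5′/3′ ratios of control transcripts differed between arrays. The log2 ratio of 5′ over 3′ signal in the beta-actin controls was -2.60, -2.65 and -2.74 on the E2A-deficient arrays and -3.26, -2.63 and -3.35 on the wild-type arrays. For Gapdh it was -3.02, -3.46 and -3.32 on the E2A-deficient arrays and -3.76, -3.39 and -3.76 on the wild-type arrays. Wild-type replicates 1 and 3 were below all E2A-deficient arrays in both, and wild-type replicate 2 lay within the E2A-deficient range. When the beta-actin ratio entered the fit, Cd3e (-1.48, limma adjusted p = 0.00954), Cd3g (-2.57, 0.0359) and Lat (-1.15, 0.0226) kept their calls. The 2 Fyb probe sets kept the size of their change (-1.06 and -1.32) but did not pass (limma adjusted p = 0.0967 and 0.0773), and none of the 7 called genes of the wider signalling list passed (limma adjusted p from 0.123 to 0.401). Their log2 values were then about as large as without the covariate for Pag1 (-0.69), Skap1 (0.36) and Rhoh (0.38), and nearer 0 for Cd5 (-0.49), Plcg1 (-0.36), Trat1 (-0.34) and Ubash3a (-0.37). Xist was 1901, 1247 and 2154 on the E2A-deficient arrays and 3055, 4456 and 58.7 on the wild-type arrays, so wild-type replicate 3 stood far below the other 5 arrays. Without that array the changes were -2.62 for Cd3g, -1.59 for Cd3e, -1.14 for Lat and -1.08 and -1.11 for Fyb, and all 5 probe sets passed.

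**Figure D5:**
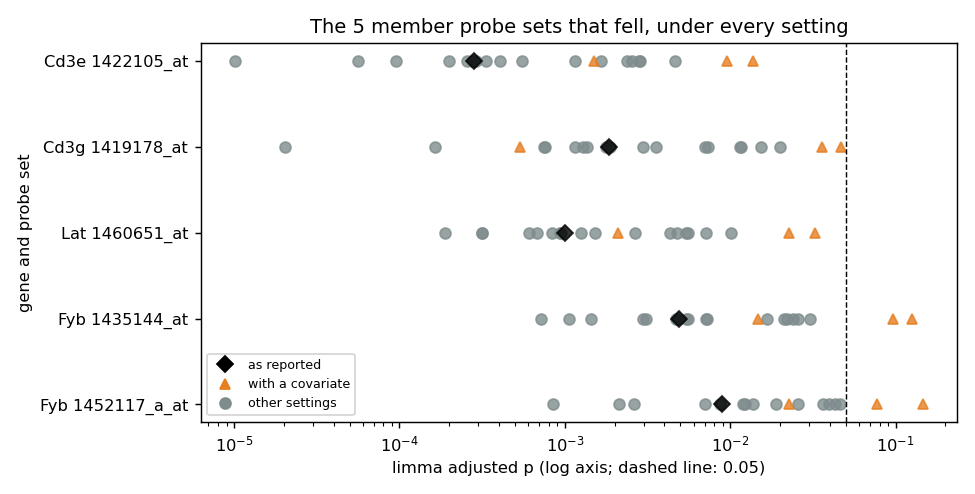
Limma adjusted p (horizontal, log axis) of the 5 member probe sets that fell, as reported (diamonds), with the beta-actin, Gapdh or Xist covariate (triangles) and under the other alternatives (circles), with a dashed line at 0.05. All points of Cd3e, Cd3g and Lat lie left of the line, and each Fyb probe set has 2 triangles to its right, those of the beta-actin and Gapdh ratios.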

How the data were processed

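Intensities of 6 Affymetrix arrays, 3 of E2A-deficient and 3 of wild-type cells, were analysed as deposited, with 1 intensity per probe set and array. The submitters' processing notes name RMA, a quantile-normalizing summary of the probes in each set, with no version and no other tool. The deposited intensities were linear and positive, and array medians were 77.4 to 79.0. The number of arrays limits the precision.

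Values were analysed as log2(intensity + 1), without further normalization or filter. After 64 control probe sets were left out, 45037 of 45101 were tested, of which 34945 had 1 annotated gene, 932 several and 9160 none. Each comparison used limma 3.58.1 (R 4.3.3), two-sided, with Benjamini-Hochberg adjustment over all probe sets, or over 18193 genes, each read by the probe set with the highest mean, for genes that are not members. Changes are E2A deficient minus wild type. The labels do not say that replicates came from separate animals, so p-values measure the spread between these samples, which may be technical. Steps were tested on simulated data. Figures used matplotlib 3.10.9 (Python 3.11.15).

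The members and lists were chosen with earlier results of these data known. Named were every member probe set, called genes of each role group of the signalling list or the 2 with the smallest p where fewer than 2 were called, called and nearest neighbours of the CD3 genes, the 3 nearest profiles to Cd3g and to Cd3e, and Tcf3. A sequence pattern planned for the proteins was not searched. Of the fixed lists, 2 erythroid and 4 thymic epithelial markers were measured, and 0 of either passed (0 and 1 at an unadjusted p under 0.05).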

Additional observations from a re-analysis of the deposited data

How the results depend on the processing

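Results were recomputed under up to 20 alternatives, fewer where an alternative drops a probe set. Cd3e, Cd3g and Lat kept their direction and their call under each of the 20 (limma adjusted p up to 0.0138, 0.047 and 0.0326). Both Fyb probe sets lost their call with the beta-actin 5′/3′ ratio and with the Gapdh 5′/3′ ratio as a covariate (limma adjusted p = 0.0967 and 0.125 for 1435144_at, 0.0773 and 0.146 for 1452117_a_at), so that 3 member probe sets fell with either covariate; the cause was not tested. Cd3d did not pass under any (lowest limma adjusted p 0.0721). Reversed signs occurred in values that did not pass: Zap70 1439749_at was 0.074 with the beta-actin ratio, 0.053 with the mean of the probe sets of a gene and 0.043 without wild-type replicate 3 (-0.28 to 0.043 over single arrays left out), and Cd247 1452539_a_at was -0.029 without wild-type replicate 2 and up to 0.080 without another array. The difference between the medians of CD3 chains and of kinases and adaptors was -0.39 with 1 probe set per gene, -0.49 with the mean of probe sets, -0.29 with the beta-actin ratio, -0.37 with the Gapdh ratio, -0.29 with shared probe sets left out, and -0.28 to -0.11 with single arrays left out.

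Over the whole array 804 probe sets were called, against 114 with the beta-actin ratio, 120 with the Gapdh ratio, 531 without shared probe sets, 471 with the replicate number as a block and 358 to 563 with single arrays left out. Each covariate and each array left out also removes residual degrees of freedom. Same-numbered arrays did not deviate together (correlations 0.041, 0.041 and -0.036), so the numbers were not taken as pairs; under the replicate block the 5 member calls stayed and 1 gene of the wider signalling list fell. Genes of that list that fell numbered 0 with either ratio, 2 with the mean of probe sets, 3 with Xist as a covariate and 0 to 4 with single arrays left out. Those that rose numbered 1 with the beta-actin ratio, 1 with the mean of probe sets and 1 after quantile normalization (Txk each time), 1 after median centring (Skap1), 0 with the Gapdh ratio, 4 among only probe sets brighter than the median (Rhoh, Skap1, Sla and Txk) and 0 to 1 with single arrays left out; under the replicate block the 2 that rose were Sla and Themis. Mpzl2 did not pass without shared probe sets (-0.35, limma adjusted p = 0.165). The arrays give no detection call here, so the dim probe sets of Cd247 limit what can be said of that chain.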
